A study of Rattus norvegicus with 6 samples.

Results

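Solute carriers (gene symbols beginning with Slc or Slco) are the membrane proteins that move amino acids, sugars, ions, metals, nucleosides, vitamins and transmitters into and out of the cell and its organelles, and their messenger RNA was measured in 3 rat olfactory ensheathing cell populations. The genes were chosen by symbol and then selected on signal: each gene whose probe sets carry a single symbol of that form was taken, except Slc2a1 and Slc16a3, and was kept where at least 1 of the 6 arrays gave a signal above a floor, the 40th percentile of all signals of its array type. Of 307 such genes on the tables, 241 were kept, out of 12137 genes kept by the same floor in the whole series. Of the 241, 71 were measured on both array types, 147 on the RAE2.0 array only and 23 on the U34A array only. The symbol rule also admitted Slc4a1ap and Slc7a6os, which are not carriers.

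Olfactory ensheathing cells are the glia that wrap the axons of the olfactory nerve. OEC Ep was the primary culture from the olfactory nerve layer of 21-day-old Wistar rats, taken after 1 week and before 3 population doublings, and OEC Lp was the same kind of culture carried past 50 doublings. TEG3 is a clonal line made with the SV40 large T antigen from cells of 60-day-old rats, so it stands for 1 clone, and its donor age differs from that of the other populations. All 3 grew in DMEM with 3% serum, 20 µg/ml bovine pituitary extract and 2 µM forskolin, an activator of adenylyl cyclase. Each population had 2 RNA pools of 3 cultures each, and 1 array of each type. The labels do not say which pool went on which array, so the spread between the 2 types holds the array design as well as the pool, and the p-values below measure that spread, which may be technical. The number of arrays limits the precision.

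As background, carriers fall into those that use the sodium gradient kept by the Na,K-ATPase, those that exchange one solute for another, and those that let a solute down its own gradient. Glia are known for taking up glutamate, buffering bicarbonate and potassium, and exporting lactate and glutamine. Cells that divide quickly are known for high demand on carriers of amino acids, glucose, iron and vitamins.

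The labelled cell type was checked against its defining markers. The summed signal of the ensheathing and Schwann cell markers measured on U34A was 34274 for OEC Ep, 3834 for OEC Lp and 5192 for TEG3, and on RAE2.0 it was 90797, 1547 and 1577. On RAE2.0, Sox10, S100b, Ngfr, Fabp7, L1cam, Erbb3 and Gfap were all at the floor in OEC Lp, although the labels give its purity as over 90%. By limma, 7 of the 8 markers on both types were lower than in OEC Ep in each of OEC Lp and TEG3. Microglia and macrophage markers summed to 23767, 1356 and 1430 on U34A in the same order and to 64142, 5056 and 3117 on RAE2.0, where each of the 13 was at least 2-fold higher in OEC Ep than in either other population. Neuron markers summed to 17987, 537 and 580 on U34A and to 36297, 3857 and 3994 on RAE2.0. Fibroblast and meningeal markers summed to 68736, 82712 and 42347 on U34A and to 76155, 137334 and 38739 on RAE2.0. Of 4 astrocyte markers on both types, limma called 1 higher and 1 lower in OEC Lp against OEC Ep, of 4 oligodendrocyte markers 1 lower and of 3 endothelial markers 0. The astrocyte list itself holds Slc1a2 and Slc1a3. Every carrier below that is high in OEC Ep therefore moves together with 3 sets of cell type markers. Carriers high in OEC Lp move with some fibroblast markers and with 1 astrocyte marker, Gja1, while other markers of these lists went down. Over OEC Ep, limma called Col3a1, a fibrillar collagen, higher in OEC Lp (log2 fold 2.22 ± 0.33, adjusted p = 0.0234). It also called Prrx1, a mesenchymal transcription factor, higher (1.91 ± 0.32, adjusted p = 0.0316, limma) and Gja1, connexin 43, higher (3.71 ± 0.48, adjusted p = 0.0162). By contrast, limma called Thy1 lower (-2.90 ± 0.45, adjusted p = 0.0249) and the astrocyte marker Aldoc lower (-2.60 ± 0.31, adjusted p = 0.0134). On RAE2.0, 6 of the 12 fibroblast and meningeal markers had OEC Lp signals at least 2-fold above those of OEC Ep and 4 had signals that far below, and Foxc1 and Twist1 went from the floor to 2118 and 1342. The part of the culture's composition in the differences of carriers in either direction was not tested. In these bulk RNA samples, fewer cells of a type and less RNA per cell cannot be told apart.

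The signal is the Affymetrix MAS5 value, a linear intensity that the deposited tables give with a trimmed mean of 1000 to 1002 on each array. Values under the floor, 128 on U34A and 168 on RAE2.0, were raised to it, and "at the floor" below means that no amount was read there. Because of this, a ratio against such a value is a lower bound. Where 3 signals of an array type are given in a row, they stand in the order OEC Ep, OEC Lp, TEG3. A gene with several probe sets has their mean log2 value. The 5 kept genes nearest to the floor had highest signals of 170 (Slc36a3), 171 (Slc7a13), 171 (Slc24a4), 181 (Slc36a2) and 189 (Slc7a12), all on RAE2.0. The 5 nearest below it reached 166 (Slc16a9), 164 (Slc23a1), 164 (Slc22a24), 161 (Slc38a3) and 160 (Slc16a8). On U34A, 64 of the 94 carriers measured there were above the floor in all 3 populations, 16 in 2 and 14 in 1. On RAE2.0 these counts were 152, 29 and 37 of 218. A carrier kept through 1 population only had to differ between populations, so no support is drawn from its difference.

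Most carriers varied little between the populations. The highest of the 3 signals was less than 2-fold above the lowest for 59 of 94 carriers on U34A (62.8%, against 62.5% of all genes kept) and for 137 of 218 on RAE2.0 (62.8%, against 63.6%). Among the 71 carriers on both types, the median log2 fold was 0.20 for OEC Lp over OEC Ep (0.11 over all 3131 genes on both types), 0.00 for TEG3 over OEC Ep (0.04) and -0.11 for TEG3 over OEC Lp (-0.01). The 2 array types gave the same sign for 42, 39 and 38 of the 71 carriers in these comparisons, or 59.2%, 54.9% and 53.5%, against 62.4%, 64.5% and 57.0% of all genes. A gene at the floor in both populations on a type has no sign there and counts here as not the same. The direction of a carrier on 1 array type alone was thus often not matched on the other.

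In the fit across both types, limma with Benjamini-Hochberg adjustment called 1 carrier higher (2.11% of all genes tested were) and 3 lower (4.02%) in OEC Lp than in OEC Ep. The rise was Slc6a20a, and the falls were Slc18a2, Slc6a6 and Slc4a7. Slc18a2 was kept on U34A through OEC Ep alone and had to differ there, so its call is given as a description. For TEG3 over OEC Ep it called 0 carriers higher (0.639% of all genes) and 1 lower (3.7%), again Slc18a2. For TEG3 over OEC Lp it called 0 carriers higher (0.192%) and 0 lower (1.02%), with a lowest adjusted p of 0.0581, for Slc4a4. At an unadjusted p under 0.05, 13, 9 and 13 of the 71 carriers differed in these comparisons in turn, and 612, 678 and 483 of the 3131 genes. In OEC Lp over OEC Ep the carriers called were 1.41% and 4.23% of the 71, near the background of all genes, and in TEG3 the 1.41% called lower was under it. None of the 5 calls held when any 1 of the 6 arrays was left out, and none held without the array type as a block, with only the 4 arrays of the pair compared, or without the filter on dim probe sets. With the floor set aside, 1 call held.

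Counting instead the carriers at least 2-fold apart in the same direction on both types, 5 of 71 had the higher signals in OEC Lp compared with OEC Ep (4.09% of all genes were) and 3 were lower (6.83%). The 5 were Slc4a4, Slc5a6, Slc6a20a, Slc22a18 and Slc28a2, and the 3 were those that limma called. In TEG3 over OEC Ep, 3 carriers were higher on both types (3.96%), namely Slc16a1, Slc22a5 and Slc25a30, and 1 was lower (8.14%), Slc18a2. In TEG3 over OEC Lp, 2 were higher (2.59%), Slc6a6 and Slc7a5, and 4 were lower (4.92%), Slc4a3, Slc4a4, Slc6a20a and Slc28a2. Comparisons that share a population share its arrays. Carriers named here for these counts were chosen after their values were seen. Slc28a2 on U34A and Slc4a3 on RAE2.0 were kept through OEC Lp alone, and Slc18a2 on U34A through OEC Ep alone. Each of these had to differ there, so no support is drawn from its place in the counts.

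**Figure D1:**
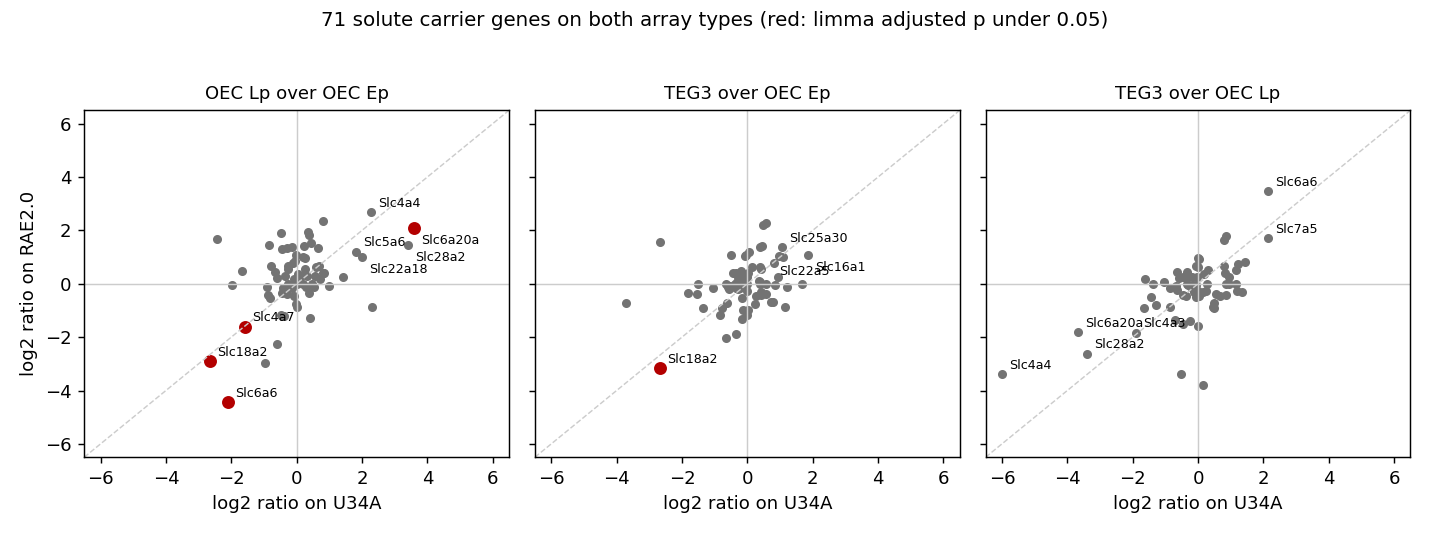
Each point is 1 of the 71 carriers measured on both array types, with its log2 ratio on U34A (horizontal axis) and on RAE2.0 (vertical axis) for 3 pairs of populations; the dashed line marks equal ratios. Red points passed limma's adjusted p threshold, and names mark these and the carriers at least 2-fold apart on both types. Most points lie near 0, and Slc18a2 lies in the lower left of the first 2 panels.

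Slc18a2 codes for the vesicular monoamine transporter VMAT2, which loads dopamine, noradrenaline, serotonin and histamine into vesicles. Its promoter window from RefSeq (GRCr8, chr1:268399771-268400070, plus strand, 250 bases before to 50 bases after the gene's start) is printed because it is the carrier that fell in both OEC Lp and TEG3, and because forskolin, which raises cyclic AMP, was in the medium of every population. Capitals mark the cyclic AMP response element TGACGTCA, which begins 52 bases before the start.

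Slc18a2: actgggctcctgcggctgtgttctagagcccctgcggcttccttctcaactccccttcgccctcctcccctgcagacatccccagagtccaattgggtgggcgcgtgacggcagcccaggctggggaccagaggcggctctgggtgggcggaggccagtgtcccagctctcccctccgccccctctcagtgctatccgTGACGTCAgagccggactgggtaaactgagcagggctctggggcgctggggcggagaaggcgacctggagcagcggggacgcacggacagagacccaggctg

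These 8 letters were searched on both strands of RefSeq promoter windows of this length, and occurred in 612 of 33469 (1.83%). Of the 199 carriers with a window, 6 held them, and the other five were Slc25a25, Slc25a33, Slc38a6, Slc45a1 and Slc46a1. A match is a description of the letters only.

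On U34A the signal of Slc18a2 was 814 in OEC Ep, while OEC Lp and TEG3 were at the floor of 128. The RAE2.0 signals were 1512, 202 and 168, the last at the floor. The OEC Ep arrays were thus the high ones on both types, and each of the 5 probe sets of the gene (2 on U34A, 3 on RAE2.0) was lower in OEC Lp and in TEG3 than in OEC Ep. Both U34A probe sets and 2 of the 3 on RAE2.0 were above the floor in OEC Ep alone, so they were kept only because OEC Ep was high, and no support is drawn from the tests that follow. The signal in OEC Lp was at least 6.34-fold lower than in OEC Ep on U34A and at least 7.49-fold lower on RAE2.0, and that in TEG3 was at least 6.34-fold and at least 9.0-fold lower. The fitted log2 fold, an average over the types, was -2.78 ± 0.31 (SE, limma, n = 2 arrays per population, adjusted p = 0.0109) for OEC Lp over OEC Ep. For TEG3 over OEC Ep it was -2.92 ± 0.31 (adjusted p = 0.0114, limma). With probe sets above the floor on all 3 arrays of a type, Slc18a2 could not be fitted. Leaving out 1 array at a time, the log2 fold stayed between -2.97 and -2.60 for OEC Lp and between -3.11 and -2.72 for TEG3, with adjusted p from 0.0543 to 0.251 and from 0.0998 to 0.246. Ensheathing, microglial and neuron markers were low on the same arrays, as given above, and their part was not tested. Slc18b1, a vesicular polyamine transporter, was measured on RAE2.0 only, with 748, 686 and 1368 for OEC Ep, OEC Lp, then TEG3.

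**Figure D2:**
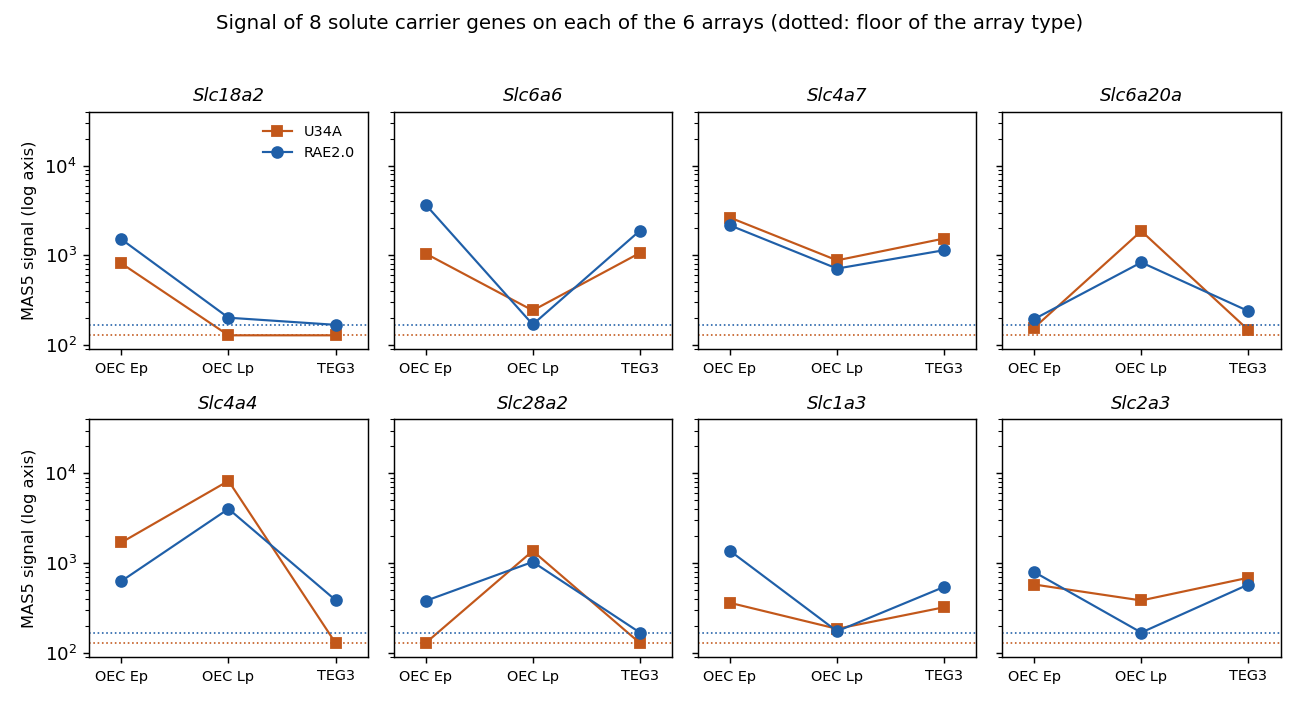
Signals (log axis) of 8 carriers in the 3 populations, on U34A (squares) and RAE2.0 (circles), 1 array per point; lines join arrays of a type and dotted lines mark the floors of 128 and 168. Slc18a2 is highest in OEC Ep, Slc6a6 is lowest in OEC Lp, and Slc6a20a, Slc4a4 and Slc28a2 are highest in OEC Lp on both types.

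Of the sodium- and chloride-coupled Slc6 family, which takes up transmitters, taurine, creatine and some amino acids, 13 members were kept and 8 were on both types. Slc6a6, the taurine transporter, had U34A signals of 1048, 243 and 1064 for OEC Ep, OEC Lp, then TEG3. On RAE2.0 these were 3680, 169 and 1885. OEC Lp was the low array on both types, and OEC Ep and TEG3 did not keep one order: TEG3 was 1.02-fold above OEC Ep on U34A and 1.95-fold below it on RAE2.0. Slc6a6 fell in OEC Lp relative to OEC Ep, by a log2 fold of -3.27 ± 0.57 (SE, limma, adjusted p = 0.0347). The ratio was 4.31-fold on U34A and at least 21.7-fold on RAE2.0, where 1 of the 2 probe sets was at the floor in OEC Lp. Without 1 array at a time it ranged from -4.19 to -2.36 (adjusted p from 0.127 to 0.343). Its difference between TEG3 and OEC Lp was 2.80 ± 0.57 on the log2 scale and did not pass the threshold (adjusted p = 0.0957, limma).

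Slc6a20a, a proline and imino acid transporter, ran the other way. Its U34A signals were 156, 1870 and 147 for OEC Ep, OEC Lp, then TEG3, and those on RAE2.0 were 195, 835 and 239. OEC Lp was high on both types, and the other two populations lay close to the floor. The rise over OEC Ep was 2.84 ± 0.51 on the log2 scale (SE, limma, adjusted p = 0.0349). OEC Lp was 12-fold above OEC Ep on U34A and at least 4.29-fold above it on RAE2.0, where 1 of the 2 probe sets was kept through OEC Lp alone. With the brightest probe set in place of the mean the adjusted p was 0.0557. Leaving out 1 array at a time gave log2 folds from 2.00 to 3.68 with adjusted p from 0.0937 to 0.375, the highest over all alternatives, of which quantile normalization and the floor at the 20th percentile gave the lowest, 0.0319 and 0.0275.

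Slc6a8, the creatine transporter, was lowest in TEG3 on both types (585, 369 and 228 on U34A in the order OEC Ep, OEC Lp, TEG3, and 1717, 2356 and 914 on RAE2.0), with no call. Slc6a9, the glycine transporter GlyT1, was not settled, since its U34A probe set gave 1967, 360 and 309 while RAE2.0 gave 404, 1290 and 1192 in the same order. In OEC Lp, all 3 RAE2.0 probe sets of Slc6a9 lay above OEC Ep and the single U34A one lay below it. The remaining members, among them the transporters of GABA, dopamine, noradrenaline and serotonin, had signals of at most 683 on any array, reached by Slc6a5 in TEG3.

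The carriers of bicarbonate, protons and chloride set cell pH and volume. Of 22 kept, 8 were on both types and 1 of them, Slc4a7, was called lower in OEC Lp than in OEC Ep (4.02% of all genes were). Slc4a7, the electroneutral sodium bicarbonate cotransporter NBCn1, gave U34A signals of 2640, 880 and 1542 for OEC Ep, OEC Lp, then TEG3 and RAE2.0 signals of 2164, 713 and 1142. The order OEC Ep, TEG3, OEC Lp held on both types, at nearly the same ratios and far above the floor. Slc4a7 fell 3.02-fold in OEC Lp relative to OEC Ep, a log2 fold of -1.59 ± 0.29 (SE, limma, adjusted p = 0.0368), and from -1.63 to -1.55 without 1 array at a time (adjusted p from 0.109 to 0.310). For TEG3 over OEC Ep the log2 fold was -0.85 ± 0.29 and missed the threshold (adjusted p = 0.177, limma).

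Slc4a4, the electrogenic sodium bicarbonate cotransporter NBCe1 known from astrocytes, was the reverse in OEC Lp. Its U34A signals were 1698 in OEC Ep, 8261 in OEC Lp and at the floor of 128 in TEG3, and its RAE2.0 signals were 629, 4027 and 386. OEC Lp was high and TEG3 low on both types. The log2 fold of TEG3 over OEC Lp was -4.70 ± 0.75 (SE, limma) and stayed just outside the threshold (adjusted p = 0.0581). The signal in TEG3 was at least 64.3-fold lower than in OEC Lp on U34A and at least 10.4-fold lower on RAE2.0. The log2 fold of Slc4a4 in OEC Lp over OEC Ep was 2.48 ± 0.75 (adjusted p = 0.15, limma). Col3a1 and Gja1 were likewise highest in OEC Lp on both types. Other markers of their lists, Thy1 and Aldoc among them, were lower there than in OEC Ep, and the part of these cell types was not tested. Slc4a4 and Slc4a7 both couple bicarbonate to sodium. Of the 8 carriers of this class on both types, they had the highest and the lowest log2 fold of OEC Lp over OEC Ep.

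Slc4a3, the anion exchanger AE3, was at 464, 607 and 162 on U34A and at 596 in OEC Lp on RAE2.0, with OEC Ep and TEG3 at the floor there. Slc12a2, the sodium potassium chloride cotransporter NKCC1 that regulates cell volume, was highest in OEC Lp on RAE2.0 (2172, 11020 and 3715) but on U34A was at 215, 378 and 380. Its log2 fold for OEC Lp over OEC Ep was 1.58 ± 0.48 with an adjusted p of 0.148 (limma).

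Nucleoside carriers bring in purines and pyrimidines for salvage. Slc28a2, the sodium-coupled purine nucleoside transporter CNT2, was at the floor on U34A in OEC Ep and TEG3 and at 1367 in OEC Lp. On RAE2.0 it was at 379 in OEC Ep, 1031 in OEC Lp and at the floor in TEG3. OEC Lp was the high array on both types. The U34A probe set was kept through OEC Lp alone, so OEC Lp had to be high there, and no support is drawn from the tests that follow. The log2 folds were 2.43 ± 0.51 for OEC Lp over OEC Ep (adjusted p = 0.0574, limma) and -3.01 ± 0.51 for TEG3 over OEC Lp (adjusted p = 0.0647, limma). Slc29a1, the equilibrative transporter ENT1, had its highest signal in OEC Lp on both types as well (617, 791 and 437 on U34A, and 222, 852 and 465 on RAE2.0), with no call. Slc29a3, a lysosomal member, was at 600, 346 and 505 on RAE2.0.

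Glutamate is cleared by the Slc1 family. Slc1a3, the glial glutamate transporter GLAST, had RAE2.0 signals of 1370, 174 and 542 for OEC Ep, OEC Lp, then TEG3. On U34A the values were 360, 185 and 322. OEC Lp was the lowest on both types. All 3 RAE2.0 probe sets were lower in OEC Lp than in OEC Ep, as were 2 of the 3 kept on U34A, the third being at the floor in both. The log2 fold of OEC Lp over OEC Ep was -1.97 ± 0.52 and was not called (adjusted p = 0.107, limma), but with the brightest probe set per gene it was -3.71 with an adjusted p of 0.0332, and with genes above the floor on all 3 arrays of a type it was called as well (0.0235). Over all the alternatives its adjusted p ran from 0.0235 to 0.821.

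Slc1a2, the transporter GLT-1 that marks astrocytes, was close to the floor throughout, at 160, 134 and the floor on U34A and at the floor, 248 and 178 on RAE2.0. Slc1a1, the transporter EAAC1, was at 247, 175 and 139 on U34A and at 379 in OEC Ep on RAE2.0, with the other two at the floor. The neutral amino acid exchangers of the family were measured on RAE2.0 only and were higher in the passaged and immortal cells. Slc1a4, ASCT1, was at 694, 1751 and 1728 for OEC Ep, OEC Lp, then TEG3. Slc1a5, ASCT2, the main route for glutamine in many dividing cells, was at 1318, 2245 and 2779.

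Cationic and large neutral amino acids enter through Slc7 light chains, most of which pair with the heavy chain Slc3a2 (4F2hc, CD98). Of the 18 carriers kept in this class, 5 were on both types and limma called 0 in any comparison, with 1 (Slc7a5, TEG3 over OEC Lp) at an unadjusted p under 0.05. In TEG3 over OEC Lp, 483 of all 3131 genes reached that level. On RAE2.0, 5 of 17 were at least 2-fold higher in TEG3 than in OEC Ep (12.1% of all genes on RAE2.0 were) and 1 was lower (10.6%), with a class median log2 ratio of 0.42. Over the 3 amino acid classes together, 30 of 31 carriers were on RAE2.0, where 20 had a higher signal in TEG3 than in OEC Ep, 7 a lower one and 3 the floor value in both. Slc7a12 and Slc36a2 were kept there through TEG3 alone and had to be higher in TEG3. Slc1a1 was kept there through OEC Ep alone and had to be lower, so no support is drawn from these. At least 2-fold, 8 of the 30 were higher and 3 lower, and the median log2 ratio was 0.16 (0.11 over all genes on RAE2.0). On U34A, 4 of the 9 measured were higher in TEG3 and 5 lower, with 0 at least 2-fold higher (10.5% of all genes on U34A) and 1 lower (12.9%). The carriers described next are thus those that were high in TEG3 or named whatever their values, and others went down there on RAE2.0, such as Slc38a10 (4071 in OEC Ep and 2285 in TEG3) and Slc7a8 (440 and 190). Slc3a2 had RAE2.0 signals of 7420, 11787 and 19653 for OEC Ep, OEC Lp, then TEG3. On U34A it was at 3622, 2096 and 4908. TEG3 was the high array on both types, while the order of OEC Ep and OEC Lp turned over, and the log2 fold of TEG3 over OEC Ep was 0.92 ± 0.43 (adjusted p = 0.287, limma).

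Its partner Slc7a5, the leucine transporter LAT1, followed the same order on each type, at 1548, 484 and 2151 on U34A and at 1541, 2133 and 6998 on RAE2.0. TEG3 was at least 2-fold above OEC Lp on both types, with a log2 fold of 1.93 ± 0.56 (adjusted p = 0.206, limma). Slc7a1, the arginine and lysine transporter CAT1, was at 265, 146 and 397 on U34A and at 808, 2190 and 3866 on RAE2.0, again with TEG3 highest on both. Its log2 fold over OEC Ep was 1.42 ± 0.58 (adjusted p = 0.235, limma). On RAE2.0 alone, Slc7a11, the cystine and glutamate exchanger xCT, was at 2269, 3374 and 4334, and Slc38a2, the glutamine and alanine transporter SNAT2, at 10628, 10456 and 15923. Slc38a1, SNAT1, was at 237, at the floor and at 546.

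Several of these carriers are known targets of ATF4, the transcription factor that answers amino acid shortage and stress of the endoplasmic reticulum. The promoter windows of 3 of them are shown because they hold TGATGNAA, the core of the composite elements bound by ATF4 and C/EBP factors (RefSeq, GRCr8, the same window length). They are those of Slc1a4 (chr14:98761513-98761812, minus strand), Slc7a1 (chr12:11664238-11664537, plus strand) and Slc38a1 (chr7:129681352-129681651, minus strand). Each is printed 5′ to 3′ along its gene, with the match in capitals, 235, 30 and 142 bases before the start. In Slc1a4 the match lies on the opposite strand.

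Slc1a4: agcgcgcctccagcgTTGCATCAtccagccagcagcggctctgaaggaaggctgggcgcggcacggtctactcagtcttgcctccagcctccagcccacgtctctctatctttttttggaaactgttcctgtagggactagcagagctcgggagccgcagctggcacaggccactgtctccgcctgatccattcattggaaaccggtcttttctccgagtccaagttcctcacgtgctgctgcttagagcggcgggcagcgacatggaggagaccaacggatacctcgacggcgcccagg

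Slc7a1: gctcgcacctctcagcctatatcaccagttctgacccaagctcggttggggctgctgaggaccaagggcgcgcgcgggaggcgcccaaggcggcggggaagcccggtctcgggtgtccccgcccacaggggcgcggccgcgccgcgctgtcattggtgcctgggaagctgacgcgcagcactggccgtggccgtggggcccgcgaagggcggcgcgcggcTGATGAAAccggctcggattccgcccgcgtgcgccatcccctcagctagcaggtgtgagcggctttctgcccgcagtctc

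Slc38a1: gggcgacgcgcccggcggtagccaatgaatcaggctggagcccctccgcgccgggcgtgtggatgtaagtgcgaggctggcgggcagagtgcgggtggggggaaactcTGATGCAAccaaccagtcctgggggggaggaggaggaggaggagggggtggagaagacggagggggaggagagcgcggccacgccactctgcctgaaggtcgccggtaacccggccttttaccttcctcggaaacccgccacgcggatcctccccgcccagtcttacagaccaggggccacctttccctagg

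This core was found on either strand of 1332 of the 33469 windows (3.98%), and in those of 8 of the 199 carriers with a window. The other five were Slc9a9, Slc23a3, Slc35a2, Slc49a4 and Slco2a1. Slc9a9 and Slc35a2 were lower in TEG3 than in OEC Ep on RAE2.0 (422 against the floor, and 1609 against 358), so a match did not go with one direction.

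The list of 15 ATF4 amino acid response genes other than carriers gave the setting. Among these 15 genes, the RAE2.0 signal of TEG3 reached 2-fold above that of OEC Ep for 13 and 2-fold below it for 1. Of all genes on RAE2.0, 12.1% rose and 10.6% fell that far. Stc2, 1 of the 13, was kept through TEG3 alone and had to be higher there, so no support is drawn from it. The list's median log2 ratio was 1.99, against 0.11 over all genes there, from 1 array per population. For OEC Lp over OEC Ep on RAE2.0, 7 of the list rose that far (10.4% of all genes did) and 1 fell (10.4%). The median there was 0.82, against 0.095 over all genes. Asns, asparagine synthetase, was at 4560, 11155 and 18053, and Atf4 itself at 16416, 26447 and 36465. On U34A, 4 of the 7 list genes measured were higher in TEG3 than in OEC Ep and 3 lower, with a median log2 ratio of 0.04. There Psat1, an enzyme of serine synthesis, was at 969, 513 and 1977, at least 2-fold higher in TEG3, and Atf3 was at least 2-fold lower, while Asns was at 553, 285 and 523 and Trib3, a pseudokinase induced by ATF4, at 305, 142 and 314. In OEC Lp over OEC Ep, 6 of the 7 were lower on U34A and 1 higher. In the fit across both types, limma called 1 of the 7 list genes there, Atf3, which fell in OEC Lp and whose call held under 4 of 14 alternatives. Of all genes, 4.02% were called lower in OEC Lp than in OEC Ep.

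**Figure D3:**
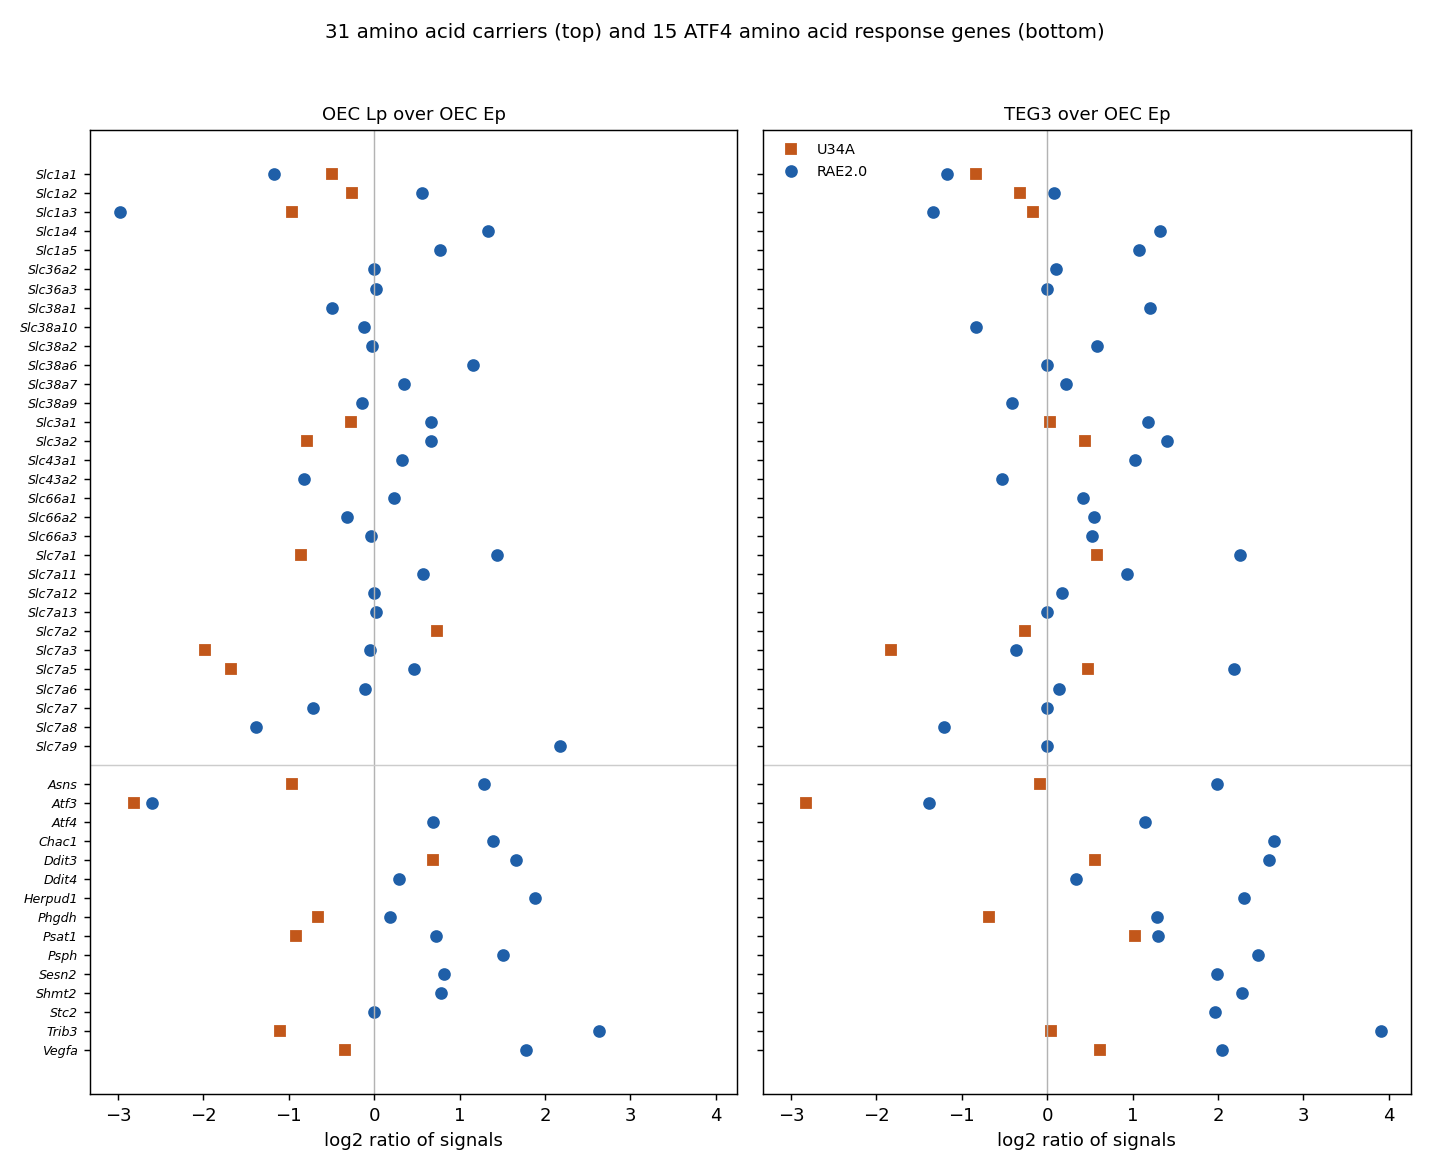
Log2 ratios of the signals of the 31 amino acid carriers kept (top) and 15 ATF4 response genes (bottom) for OEC Lp over OEC Ep (left) and TEG3 over OEC Ep (right), with U34A as squares and RAE2.0 as circles, 1 array per population and type. In TEG3, 20 of the 30 carriers on RAE2.0 and 4 of the 9 on U34A lie above 0, as do 14 of the 15 response genes on RAE2.0 and 4 of the 7 on U34A. On RAE2.0, Slc7a12, Slc36a2 and Stc2 were kept through TEG3 alone and had to lie above 0 in TEG3. Slc1a1 was kept there through OEC Ep alone and had to lie below 0.

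On RAE2.0 alone, 14 of the 147 carriers without a U34A value had a signal in OEC Lp at least 2-fold above OEC Ep (9.52% of the carriers, against 10.1% of 8411 such genes) and 16 were lower (10.9% against 9.52%). In TEG3 over OEC Ep, 14 were higher (9.52% against 12.6%) and 19 lower (12.9% against 9.34%). In TEG3 over OEC Lp, 7 were higher (4.76% against 9.75%) and 11 lower (7.48% against 8.03%). With 1 array per population these values have no replicate check and no test. The single carriers that follow are described for their size and not as a trend of the family.

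The 6 carriers with the lowest of these ratios to OEC Ep are given here with their signals side by side, since both comparisons use the same OEC Ep array. Slc13a3, the sodium dicarboxylate transporter NaDC3, gave 2190 in OEC Ep but only the floor value in both others, at least 13-fold lower. Slc22a17, a receptor for lipocalin-2 that shares the fold of organic ion transporters, was at 5100, 823 and 787. Slc35f1, an orphan member, was at 1377, 230 and 174. Slc44a1, a choline transporter, was at 6049, 1363 and 1163. Slc15a3, a lysosomal peptide and histidine transporter known from macrophages, and Slco4a1, an organic anion transporter, reached 903 and 869 in OEC Ep, with both others at the floor. Slc13a3, Slc15a3 and Slco4a1 were kept through OEC Ep alone, so they had to be lower in OEC Lp and TEG3. No support is drawn from their differences. All 13 microglia and macrophage markers and all 9 ensheathing markers on RAE2.0 were at least 2-fold lower on the same 2 arrays, and their part was not tested.

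The class of phosphate, sulfate and carboxylate carriers held further examples. Slc13a5, the citrate transporter, was at 571 in OEC Ep, at the floor in OEC Lp and at 169 in TEG3, and Slc34a2, a sodium phosphate cotransporter of epithelia, gave 531 in OEC Ep and the floor value in both others. The ubiquitous phosphate transporters did not share this: Slc20a1 was at 7454, 7734 and 5408, and Slc20a2 at 376, 603 and 249 on U34A and 617, 974 and 566 on RAE2.0. On RAE2.0, 3 of the 5 carriers of this class were at least 2-fold lower in each of OEC Lp and TEG3 than in OEC Ep (10.4% and 10.6% of all genes on RAE2.0 were), and the class median log2 ratio was -1.66 in both. Slc13a3 and Slc34a2 were kept there through OEC Ep alone, so they had to be lower in both others. The median is the ratio of Slc34a2 to the floor. No support is drawn from this count or median.

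The highest RAE2.0-only ratios of OEC Lp over OEC Ep were those of Slc7a9, Slc25a37, Slc25a21, Slc35f2, Slc25a12 and Slc8b1. Slc7a9, the cystine light chain that pairs with Slc3a1, was at the floor in OEC Ep and TEG3 and at 757 in OEC Lp, at least 4.51-fold higher. Slc7a9 was kept through OEC Lp alone and had to be highest there. Slc3a1 itself, on both types, was at 1498, 1242 and 1539 on U34A and at 629, 1001 and 1422 on RAE2.0. Slc8b1, the mitochondrial sodium calcium exchanger NCLX, was at 763, 2020 and 599, so OEC Lp was the high array. The plasma membrane exchanger Slc8a1 (NCX1) was also highest in OEC Lp on RAE2.0 (637, 2404 and 174), but its U34A signals of 531, 382 and 420 did not follow.

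Of the 4 sugar carriers on both types limma called 0 in any comparison, with 1 at an unadjusted p under 0.05 in OEC Lp over OEC Ep and 1 in TEG3 over OEC Lp. At that level 612 and 483 of all 3131 genes differed in these comparisons. Slc2a3, the high-affinity glucose transporter GLUT3, was lowest in OEC Lp on both types, at 577, 383 and 687 on U34A and at 795, the floor and 577 on RAE2.0. Its log2 fold of OEC Lp over OEC Ep was -1.42 ± 0.45 (adjusted p = 0.17, limma). Slc2a4, the insulin-responsive GLUT4, was measured on U34A only, at 326, 205 and 328. On RAE2.0, the proton-coupled sugar carriers Slc45a1 (floor, floor and 494) and Slc45a3 (180, floor and 542) were highest in TEG3. Slc45a1 was kept through TEG3 alone and had to be highest there. Slc2a6, a lysosomal member, was at 354, the floor and 545, and Slc2a13, the proton myo-inositol cotransporter, at 515, 1102 and the floor. Slc50a1, a sugar efflux transporter, was nearly level, at 1792, 1697 and 2116.

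Among carriers of monocarboxylates, choline and vitamins, Slc16a1, the lactate and pyruvate transporter MCT1, was at 377, 595 and 1357 on U34A and at 2352, 6029 and 4940 on RAE2.0. OEC Ep was the lowest on both types. TEG3 was at least 2-fold above it on both, by 1.46 ± 0.43 on the log2 scale, short of the threshold (adjusted p = 0.131, limma). Emb, embigin, which carries MCT proteins to the membrane, rose in TEG3 over OEC Ep by 1.91 ± 0.35 on the log2 scale (adjusted p = 0.0476, limma), with 424, 420 and 1209 on U34A and 1072, 1065 and 5339 on RAE2.0. That call held under 3 of 14 alternatives. Emb was the 1 gene called of the 6 on both types in a list of 9 carrier chaperones and glutamate-glutamine enzymes. Of all genes, 0.639% were called higher in that comparison. Bsg, of the same list, was at 3753, 5686 and 6029 on U34A and at 10597, 31416 and 19956 on RAE2.0, with no call. Slc16a7, the higher-affinity MCT2, was low in TEG3, at 204, 183 and the floor on U34A and at 784, 2012 and 193 on RAE2.0.

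Slc5a6, the sodium-dependent transporter of biotin and pantothenate, was lowest in OEC Ep on both types, at 339, 1195 and 665 on U34A and at 927, 2132 and 1887 on RAE2.0. Its log2 fold in OEC Lp over OEC Ep was 1.51 ± 0.33 (adjusted p = 0.0649, limma). Slc19a2, a thiamine transporter, was highest in OEC Lp on RAE2.0, at 1102, 2814 and 550. Slc22a5, the carnitine transporter OCTN2, was lowest in OEC Ep on both types as well, at 224, 261 and 474 on U34A and at 417, 1124 and 837 on RAE2.0. Slc22a18, an organic cation transporter-like gene in an imprinted region, was at 188, 754 and 242 on U34A and at 285, 576 and 307 on RAE2.0, with a log2 fold of 1.51 ± 0.36 in OEC Lp over OEC Ep (adjusted p = 0.0825, limma).

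Of the other organic anion carriers, Slco3a1 was lowest in TEG3 on RAE2.0, at 1570, 1198 and 451. Slco2a1, the prostaglandin transporter, was at 232, 190 and 343 on U34A and at 217, the floor and the floor on RAE2.0. Slco1a4 was at 735, 598 and 509 on U34A and at 191, 483 and 182 on RAE2.0. Neither was called. Slc15a4, a lysosomal relative of Slc15a3, did not share the OEC Ep signal of that gene, at 399, 373 and 526 on U34A and 1004, 1721 and 1045 on RAE2.0. Slc27a1, a fatty acid transport protein, was at 595, 435 and 290 on U34A and at 1682, 1312 and 1518 on RAE2.0.

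The mitochondrial carriers were the largest class, with 35 kept, 10 on both types and 0 called by limma in any comparison. At an unadjusted p under 0.05, 1 was higher in TEG3 than in OEC Ep, and 0 differed in the other comparisons. Of all 3131 genes, 678 differed at that level in TEG3 over OEC Ep, and 612 and 483 in the other comparisons. The adenine nucleotide translocators exchange ADP for ATP across the inner membrane. Slc25a4 (ANT1) was at 19038, 25445 and 25456 on U34A and at 31381, 12880 and 25455 on RAE2.0, and Slc25a5 (ANT2) at 22735, 23312 and 33990 and at 27250, 35014 and 26894. For both, the order of the populations differed between the types, and the probes of these closely related genes may not be fully specific. Slc25a30, known as kidney mitochondrial carrier protein, was the member at least 2-fold higher in TEG3 than in OEC Ep on both types, at 166, 199 and 349 on U34A and 560, 1100 and 1448 on RAE2.0 (log2 fold 1.22 ± 0.33, adjusted p = 0.112, limma).

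On RAE2.0 alone, Slc25a37, mitoferrin-1, which brings iron to the site of heme and iron-sulfur cluster synthesis, was at 340, 1094 and 768. Slc25a12, the aspartate glutamate carrier aralar, was at 622, 1859 and 853, and its relative Slc25a13, citrin, at 1127, 772 and 1643. OEC Lp was the highest population for Slc25a12 and the lowest for Slc25a13. Slc25a21, the oxodicarboxylate carrier, gave a signal in OEC Lp only (510, with the others at the floor), and Slc25a33, a pyrimidine nucleotide carrier, was highest in TEG3 (408, 414 and 915). Slc25a21 was kept through OEC Lp alone and had to be highest there.

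Of 24 carriers of zinc, iron, copper and manganese, 4 were on both types and limma called 0 in any comparison, with 0 at an unadjusted p under 0.05. Slc11a2, the iron transporter DMT1, was one of the carriers on which the types disagreed, with 374, 1867 and 612 on U34A and 1904, 1028 and 1175 on RAE2.0. OEC Lp exceeded OEC Ep for all 3 U34A probe sets of Slc11a2 and lay below it for both RAE2.0 ones, so no direction can be given. Slc30a1, the zinc exporter at the plasma membrane, was at 132, 200 and the floor on U34A and at 535, 822 and 1126 on RAE2.0. Slc39a1, a zinc importer, was nearly level on RAE2.0, at 10284, 10509 and 8223, while Slc39a8, which also takes up manganese and cadmium, was at 2269, 929 and 707. Slc40a1, ferroportin, the iron exporter known from macrophages, did not exceed 213.

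Of the 17 other metal handling genes listed, 7 were on both types and limma called 0. At an unadjusted p under 0.05, 1 was lower in OEC Lp than in OEC Ep, and in TEG3 1 was higher and 2 lower than in OEC Ep. Of all 3131 genes on both types, 612 and 678 differed at that level in these comparisons. Tfrc, the transferrin receptor, was lowest in OEC Ep on both types, at 220, 348 and 1420 on U34A and at 4648, 12385 and 13201 on RAE2.0, with a log2 fold of 2.10 ± 0.50 in TEG3 (adjusted p = 0.0906, limma). Mt2A, a metallothionein, was at 4141, 2131 and 17132 on RAE2.0.

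Carriers of nucleotide sugars serve glycosylation in the Golgi and endoplasmic reticulum. Slc35a5 was at 2079, 5501 and 4428 on RAE2.0, so OEC Ep was the lowest. Slc35f2, an orphan member, was at 202, 612 and 1008, at least 2-fold above OEC Ep in both others. Of the 2 genes that are no carriers, Slc4a1ap, the adaptor protein kanadaptin, was at 1422, 1683 and 2819.

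Of the 10 Na,K-ATPase genes listed, which keep the sodium gradient that many of these carriers use, 4 were on both types and 1, Fxyd1, was called. Fxyd1, phospholemman, a regulatory subunit, fell in OEC Lp and in TEG3 relative to OEC Ep, by log2 folds of -2.87 ± 0.38 and -3.29 ± 0.38 (adjusted p = 0.0162 and 0.0164, limma). These calls held under 2 and 3 of 13 alternatives. Of all genes, 4.02% and 3.7% were called lower in OEC Lp and in TEG3 than in OEC Ep. The beta subunit Atp1b1 was highest in OEC Lp on both types, at 2701, 3287 and 1245 on U34A and at 917, 2907 and 977 on RAE2.0, with no call. Glul, glutamine synthetase, which uses the glutamate that Slc1a3 brings in, was lowest in TEG3 on both types, at 2370, 3345 and 406 and at 5232, 3755 and 1424, and missed the threshold against OEC Ep (log2 fold -2.21 ± 0.45, adjusted p = 0.0606, limma).

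The 23 carriers kept on U34A only have 1 array per population there and no test. Against OEC Ep, OEC Lp was at least 2-fold lower for 2 of them, Slc22a7 (300, 149 and 160) and Slc44a4 (350 in OEC Ep and the floor in both others), and 0 were higher. These are 8.70% and 0% of the 23, against 6.39% and 3.53% of the 595 genes kept on U34A only. Slc44a4 was kept through OEC Ep alone and had to be lower in both others, so no support is drawn from its place in these counts. In TEG3, Slc13a2 (floor, 167 and 480) and Slc6a5, the glycine transporter GlyT2 (146, 219 and 683), were at least 2-fold higher than in OEC Ep (8.70% against 5.71%), and Slc44a4 was lower (4.35% against 7.23%). Compared with OEC Lp, TEG3 was higher for 3 (13% against 8.07%), Slc13a2, Slc6a5 and Slc22a2, and lower for 1 (4.35% against 4.37%), Slc5a5, the iodide transporter. Of these 23, 22 had probe sets on RAE2.0 that stayed below the floor on all 3 arrays there, and 12 of the 147 carriers kept on RAE2.0 only had U34A probe sets below the floor.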

How the data were processed

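Total RNA of 3 cell populations was hybridised to 2 Affymetrix array types, U34A (8799 probe sets) and RAE2.0 (31099), 1 array per population and type. Per the labels, the deposited tables hold MAS5 signals, linear intensity values scaled by the authors, and the submitters' processing notes name Microarray Suite 5.0. The aligner, build and scan batches are not given in the sources used here. Arrays of a type were brought to a common mean, trimmed by 2% at each end. Values were floored at the 40th percentile of the type, probe sets above the floor on at least 1 array were kept, and log2 values of probe sets with a single symbol were averaged per gene (308 U34A and 436 RAE2.0 probe sets carried several symbols and 1426 and 9780 none). The 3131 genes on both types were fitted in limma 3.58.1 (R 4.3.3) with the population and the array type, so that the replicate number, which is the array type, acts as a block. That pairing comes from the labels, since the types have different probes and scales. Residual degrees of freedom were 2. Adjusted p-values are Benjamini-Hochberg over all genes tested, with a threshold of 0.05. Genes on 1 type have no test.

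The members, substrate classes, marker and partner lists were chosen with earlier results of these data known. Named carriers were those called, the one of highest signal in each class, the 6 highest and 6 lowest RAE2.0-only ratios per comparison, and a list of carriers named whatever their result. Further carriers, such as those at least 2-fold apart on both types, were named outside this rule. The fit was tested on simulated data. Alternatives were other floors, no floor, no filter on dim probe sets, probe sets above the floor on all 3 arrays, the brightest probe set, quantile normalization, no block, the 4 arrays compared and each array left out.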

Additional observations from a re-analysis of the deposited data

How the results depend on the processing

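With 2 arrays per population and 2 residual degrees of freedom, the calls on carriers were not stable. In OEC Lp over OEC Ep the 4 carriers called became 2 with the floor at the 20th percentile, 1 with no floor, and 0 with no filter on dim probe sets, with only the 4 arrays compared or with no replicate block of array type. In TEG3 over OEC Ep the 1 call became 0 when a probe set was kept only if above the floor on all 3 arrays (which leaves Slc18a2 out), with no floor, with no filter on dim probe sets, with only the 4 arrays compared and with no replicate block. In TEG3 over OEC Lp the count was 0 under the 8 settings other than leaving out arrays. Leaving out each array in turn gave 0 calls in every comparison (lowest 0, highest 0), from fits with fewer arrays, in which a lone array is assumed to vary like the other populations. Of the 5 called folds, 4 stayed past the threshold with the brightest probe set and 5 with quantile normalization, and none turned sign under any setting. Carriers on RAE2.0 only at least 2-fold apart numbered 30 in OEC Lp over OEC Ep (48 with no floor and 48 with the floor at the 20th percentile), 33 in TEG3 over OEC Ep (52 with no floor) and 18 in TEG3 over OEC Lp (41 and 37).

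Slc3a1, Slc4a3, Slc4a4, Slc5a6, Slc22a18, Slc25a30 and Slc28a2 fell outside the naming rule, and their folds are not among those that follow. Of 84 log2 folds of carriers on both types named by that rule, 79 were not called. The 34 that were no larger than their SE turned sign under at least 1 setting. Of the others, 8 turned sign, each when an array was left out, and the cause was not tested. Over the 6 fits without 1 array, TEG3 over OEC Ep ran from -2.47 to 0.26 for Slc8a1, from -1.55 to 0.047 for Slc1a3 and from -0.035 to 1.07 for Slc30a1. OEC Lp over OEC Ep ran from -1.57 to 0.36 for Slc7a5 and from -0.18 to 1.22 for Slco1a4. TEG3 over OEC Lp ran from -0.11 to 1.01 for Slc16a1, from -0.18 to 1.16 for Slc25a4 and from -0.021 to 0.87 for Slco2a1. The 3′ to 5′ ratio of the GAPDH control was 1.52 to 1.96 on U34A, highest in OEC Ep, and 0.981 to 1.02 on RAE2.0.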
